A study of Mus musculus with 12 samples.

Results

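Small nucleolar RNAs (snoRNAs) were followed in mouse liver across 2 diets and a maple syrup extract. They were the genes whose single platform symbol starts with Snora or Snord, and 73 of 22180 named genes met that rule, 26 Snora and 47 Snord. Where a gene had several probe sets, 1 was chosen by its mean level over all 12 arrays, the highest, so that these mean levels are given only as a description. All mice were male C57BL6, entered the experiment at 6 weeks of age and were killed at 18 weeks, after 12 weeks of free access to their diet. The low-fat control group ate a diet with 10% of its energy from fat. The low-fat MSX group ate the same diet with the extract, MSX, at 0.5% by weight. The high-fat control group ate a diet with 45% of its energy from fat, and the high-fat MSX group ate that diet with MSX at 0.5%. Each group had 3 arrays, described in the labels as biological replicates, of total RNA extracted with Trizol. All values are log2 probe set summaries on Affymetrix arrays, so that a difference of 1 stands for a doubling, and the level of one probe set says nothing about the level of another.

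SnoRNAs are short nuclear RNAs that sit in ribonucleoprotein particles and pair with ribosomal RNA or spliceosomal RNA. Box C/D snoRNAs, named Snord, mostly guide ribose methylation by fibrillarin, and box H/ACA snoRNAs, named Snora, mostly guide the conversion of uridine to pseudouridine by dyskerin. A few members of both classes are needed for cutting the ribosomal RNA precursor instead. Most mammalian snoRNAs are cut out of introns of host genes after splicing, many of them genes for ribosomal proteins or for long non-coding RNAs that are otherwise quickly degraded.

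Sequences from the RefSeq table of miRNA hairpins (build GRCm38.p6) overlapped 2 of the 73 snoRNAs, and both are shown. One of them, Snora34, carried the only change past the threshold. The other, Snora19 of the same class, is covered over its whole annotated length. Capitals mark the bases that lie within the snoRNA gene, written 5′ to 3′.
Mir1291 hairpin over Snora34, chr15:98519762-98519878, minus strand: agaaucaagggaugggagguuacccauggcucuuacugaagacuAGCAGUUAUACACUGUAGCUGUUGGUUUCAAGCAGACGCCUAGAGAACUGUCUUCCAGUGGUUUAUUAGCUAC
Mir3084-2 hairpin over Snora19, chr19:60774329-60774397, minus strand: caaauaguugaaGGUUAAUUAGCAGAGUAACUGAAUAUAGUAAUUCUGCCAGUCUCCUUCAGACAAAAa
The Mir1291 hairpin is 117 bases long, and its bases 45 to 117 cover 73 of the 118 bases of Snora34. The Mir3084-2 hairpin is 69 bases long and holds all 56 bases of Snora19. The signal of a hairpin and that of the snoRNA that overlaps it cannot be told apart by a probe in the shared bases.

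The 73 snoRNA genes were 48 to 221 bases long, with a median of 83 bases. Mean log2 levels ran from 2.68 for Snord90 to 12.8 for Snora33, and 66 of the 73 lay above the median probe set of the arrays, at 4.7. The residual SD within groups had a median of 0.279 on the log2 scale over the snoRNAs and of 0.19 over all named genes. The difference between 2 groups of 3 arrays had a median SE of 0.201 over the snoRNAs, from 0.113 to 0.444, and its 95% confidence interval reached a median of 0.433 to either side. The number of arrays limits the precision. Array medians over all probe sets lay between 4.68 and 4.75, and correlations between arrays between 0.973 and 0.984.

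With the extract on the low-fat diet, Snora34 fell to less than its level in any other array, and most other snoRNAs had a slightly lower mean without passing the test singly. The comparison asks what MSX does to liver RNA when the diet is low in fat. Snora34, a box H/ACA RNA assigned to pseudouridylation of large-subunit ribosomal RNA, had log2 values of 9.36, 9.27 and 8.87 in the low-fat control arrays. In the low-fat MSX arrays it had 7.55, 8.36 and 8.003. The high-fat control arrays gave 9.02, 9.37 and 9.29, and the high-fat MSX arrays 9.11, 8.97 and 8.85. The 3 low-fat MSX arrays were thus the lowest of the 12 and overlapped with no other group. The mean went from 9.16 ± 0.26 (SD, n = 3) to 7.97 ± 0.41 (SD, n = 3), a log2 difference of -1.19 with SE 0.19 (95% interval -1.61 to -0.773), to 0.437 of the control level (limma, adjusted p = 0.037). It was 1 of 21 genes called lower at an adjusted p under 0.05, 0.0947% of all genes, and 35 genes were called in all, 0.158%. Without 1 array in turn the difference stayed between -1.39 and -0.981, but the limma adjusted p was under 0.05 in only 2 of the 12 such fits, those that left out low-fat MSX replicate 2 (0.0227) and high-fat control replicate 1 (0.0419). It reached 0.164 when low-fat control replicate 2 was left out. It was 0.197 when only the 6 low-fat arrays were fitted, and over all other settings that kept the 12 arrays it ran from 0.00836 to 0.0618.

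**Figure D1:**
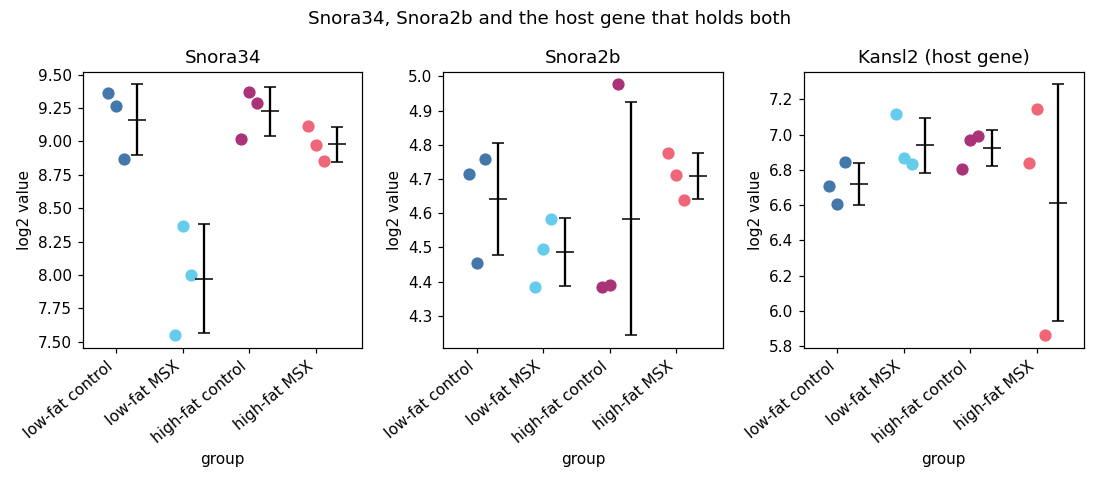
Log2 value (vertical axis) of Snora34, of Snora2b and of the gene Kansl2, which holds both, by group (horizontal axis), with each point 1 array and the bars the group mean and SD of 3 arrays. The 3 low-fat MSX arrays of Snora34, from 7.55 to 8.36, lie below all other arrays, whereas the low-fat groups overlap for Snora2b and Kansl2. The mean of Snora2b is below the median probe set.

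Snora34 is 1 of 2 measured snoRNAs within Kansl2, which codes for a subunit of a histone acetyltransferase complex. The neighbour, Snora2b, had 4.72, 4.45 and 4.76 in the low-fat control arrays and 4.38, 4.49 and 4.58 with MSX. The mean of Snora2b over the 12 arrays, 4.61, was below the median probe set, at 4.7, which limits what its values can show. The Snora2b difference was -0.16 with SE 0.16 (95% interval -0.494 to 0.183; limma, adjusted p = 0.85), and the 2 low-fat groups overlapped. The messenger RNA of Kansl2 had 6.71, 6.61 and 6.85 in the low-fat control arrays and 7.12, 6.87 and 6.83 with MSX, a difference of 0.22 with SE 0.24 (limma, adjusted p = 0.864). A second probe set of Kansl2 gave -0.11 for the same contrast. Whether Snora34 differed from the other products of its locus was not tested directly.

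Over all 73 snoRNAs the median difference for the extract on the low-fat diet was -0.16, against -0.0014 over all named genes, and 58 of 73 (79.5%) had a difference below 0, against 50.3% of all genes. Both classes leaned the same way, with 23 of 26 Snora below 0 (median -0.23) and 35 of 47 Snord (median -0.14). At an unadjusted limma p under 0.05, 9 snoRNAs were lower and 1 was higher, where 4.03% of all genes were called lower and 4.03% higher. Beside Snora34 the 9 were Snora15, Snora23, Snora30, Snora69, Snord16a, Snord69, Snord72 and Snord104, and the 1 higher was Snord90. Groups of 3 arrays did not overlap for 7 snoRNAs that were lower, Snora30, Snora34, Snora35, Snora69, Snord23, Snord71 and Snord104, where 6.73% of all genes were so, and for 1 that was higher, Snord90, where 7.13% were. The count of 10 called snoRNAs became 5 without low-fat MSX replicate 1 and 19 without low-fat MSX replicate 3. The median became -0.25 when low-fat MSX replicate 3 was left out, -0.07 when low-fat MSX replicate 2 was, and -0.09 when it was low-fat control replicate 2.

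**Figure D2:**
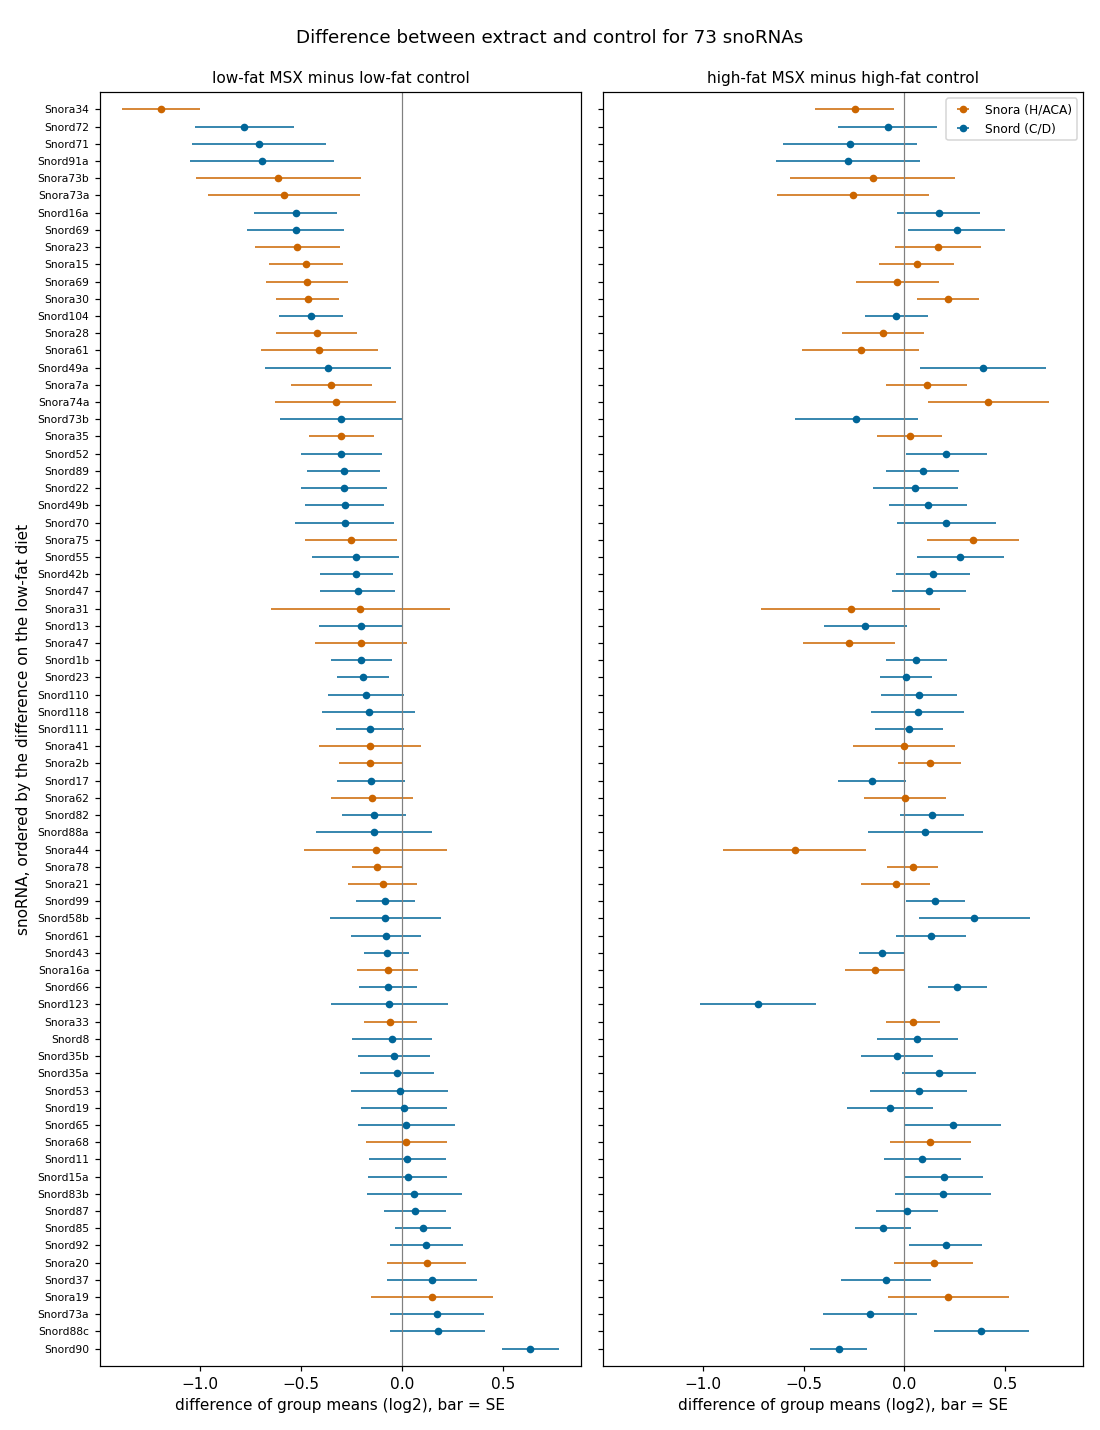
Difference between extract and control on the log2 scale (horizontal axis, bars show the SE) for each of the 73 snoRNAs (vertical axis), for each diet. On the low-fat diet 58 of 73 lie below 0 and Snora34 lies farthest to the left, at -1.19.

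The 12 arrays differed in how low the snoRNAs stood as a whole. The median deviation of the 73 from their own means was -0.16, -0.36 and 0.085 in the low-fat MSX arrays 1 to 3 and -0.058, 0.175 and 0.022 in the low-fat control arrays. It was 0.0576, -0.0248 and 0.0287 in the high-fat control arrays and 0.080, -0.045 and 0.191 in the high-fat MSX arrays. Low-fat MSX replicate 2 alone held the lowest value of 32 of the 73 snoRNAs, where 7.2% of all genes were lowest in that array, and replicate 1 held the lowest value of 11 more. The third low-fat MSX array was among the higher ones, with 25 of 73 snoRNAs below their own mean there. Snora34 did not follow this order, since it was lowest in low-fat MSX replicate 1 and its value in replicate 3, 8.003, was below its value in replicate 2, 8.36. The classes also differed among these arrays: the Snora median was -0.36, -0.20 and -0.0307 in replicates 1 to 3, and the Snord median -0.0863, -0.39 and 0.16. The low-fat MSX group had the lowest of the 4 group means for 48 of 73 snoRNAs, where 24.6% of all genes had theirs there.

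**Figure D3:**
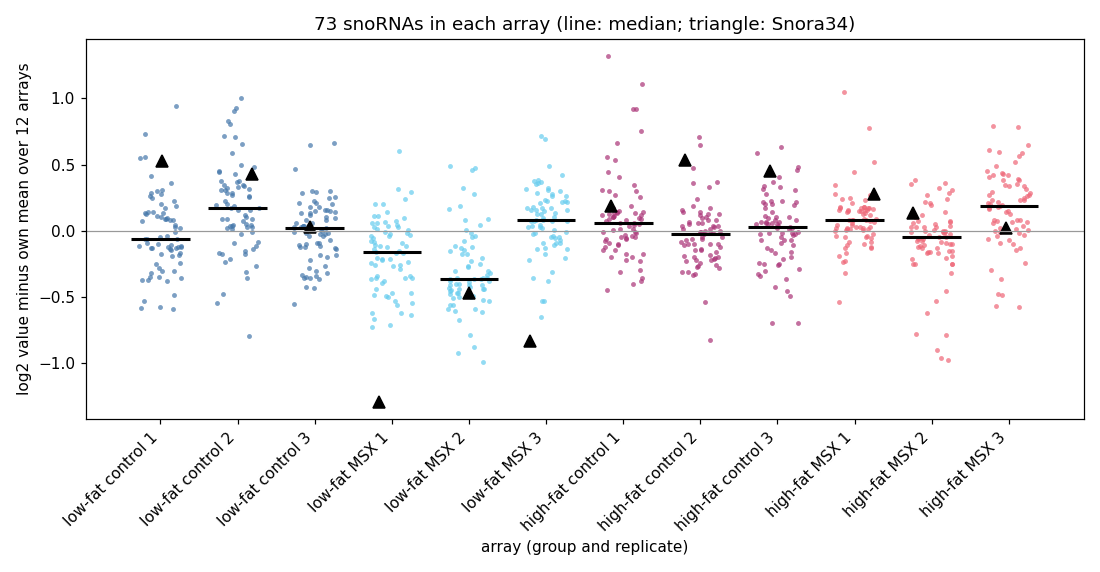
Log2 value minus the snoRNA's own mean over 12 arrays (vertical axis) for the 73 snoRNAs in each array (horizontal axis), with the line at the median of the array and the triangle at Snora34. Low-fat MSX replicates 1 and 2 have the lowest medians, at -0.16 and -0.36, and replicate 3 is at 0.085.

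Several other guide RNAs were lower in the low-fat MSX arrays without passing the adjustment over all genes. Snord104, a box C/D guide for large-subunit ribosomal RNA, had 12.74, 12.46 and 12.45 in the low-fat control arrays and 12.22, 11.95 and 12.12 with MSX. The 2 groups did not overlap, and the difference was -0.45 with SE 0.16 (limma, adjusted p = 0.459). Snora30, which lies within the chromatin remodeller gene Srcap, had 8.54, 8.72 and 8.61 without and 8.04, 7.9996 and 8.43 with MSX. These groups did not overlap either, and the difference was -0.47 with SE 0.15 (limma, adjusted p = 0.434).

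Snord72, within the ribosomal protein gene Rpl37, had 7.33, 8.39 and 7.69 in the low-fat control arrays and 6.83, 6.71 and 7.53 with MSX. Its largest value lay in low-fat control replicate 2 and the groups overlapped, with a difference of -0.78 and SE 0.24 (limma, adjusted p = 0.402). Snora15, within the chaperonin subunit gene Cct6a, had 8.55, 8.53 and 8.24 without and 7.81, 7.78 and 8.30 with MSX. Here replicates 1 and 2 were low and replicate 3 was within the control range (difference -0.47, SE 0.18; limma, adjusted p = 0.536). Snora23, within the nuclear import receptor gene Ipo7, showed another order, with 9.67, 9.39 and 9.55 without and 8.93, 9.41 and 8.72 with MSX, so that replicate 2 was the one within the control range (difference -0.52, SE 0.21; limma, adjusted p = 0.566). Snora69, Snord16a and Snord69 had differences of -0.47, -0.53 and -0.53 (limma, adjusted p = 0.587, 0.534 and 0.615), and of these only Snora69 had groups that did not overlap.

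Snord71 had 10.19, 9.29 and 9.16 in the low-fat control arrays and 8.91, 8.89 and 8.72 with MSX, which did not overlap (difference -0.71, SE 0.33; limma, adjusted p = 0.63). The high-fat control arrays gave 10.36, 9.01 and 8.97, so that 1 array of each control group was high and the other 10 arrays lay between 8.72 and 9.43.

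Snord90, within the gene of the RNA-binding ubiquitin ligase Rc3h2, ran the other way. It had 2.562, 2.444 and 2.4997 in the low-fat control arrays and 3.284, 3.173 and 2.960 with MSX. The high-fat control arrays gave 2.74, 2.63 and 2.75, and the high-fat MSX arrays 2.70, 2.23 and 2.21. The low-fat MSX arrays were the 3 highest of the 12, with a difference from the low-fat control of 0.64 and SE 0.14 (95% interval 0.331 to 0.943; limma, adjusted p = 0.141). Its probe set had the lowest mean of all 73 snoRNAs, 2.68, which is below the median probe set. The Rc3h2 messenger RNA differed by 0.11 in the same contrast (limma, adjusted p = 0.863).

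The contrast between diets in mice fed MSX shares the low-fat MSX arrays with the comparison above, and its differences mostly lay on the other side of 0. No snoRNA passed the adjusted threshold (limma; 0 of all genes did, 0%), and 11 were higher and 1 was lower in high-fat MSX at an unadjusted p under 0.05, against 2.39% and 2.18% of all genes. The 11 were Snora15, Snora23, Snora28, Snora30, Snora34, Snora69, Snora75, Snord1b, Snord52, Snord69 and Snord104, and the 1 lower was Snord90. Snora34 had 9.11, 8.97 and 8.85 on the high-fat diet with MSX against 7.55, 8.36 and 8.003 on the low-fat diet with MSX, a difference of 1.01 with SE 0.19 (95% interval 0.589 to 1.43; limma, adjusted p = 0.531). Snord90 had a difference of -0.76 (95% interval -1.06 to -0.451; limma, adjusted p = 0.531). Snora75, within the nucleolin gene Ncl, had 4.13, 4.49 and 4.78 on the low-fat diet with MSX and 5.57, 5.12 and 4.81 on the high-fat diet with MSX, which did not overlap (difference 0.70, SE 0.23; limma, adjusted p = 0.999). Groups did not overlap for 10 snoRNAs that were higher, against 4.68% of all genes, and for 1 that was lower, against 4.76%. The median over the 73 was 0.185, and 63 lay above 0, against 50.5% of all genes. The median was 0.110 without low-fat MSX replicate 2, 0.114 without high-fat MSX replicate 3, 0.283 without high-fat MSX replicate 2 and 0.298 without low-fat MSX replicate 3. The count of 12 was 6 without any 1 of low-fat MSX replicates 1 and 2 and high-fat MSX replicates 1 and 3, and 18 without low-fat MSX replicate 3.

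On the high-fat diet the extract left no snoRNA past the adjusted threshold (limma; 0.0361% of all genes passed). At an unadjusted p under 0.05, 2 snoRNAs were lower and 0 higher, against 3.51% and 3.48% of all genes. Snord123, within the non-coding host Snhg18, had 6.35, 5.33 and 6.06 in the high-fat control arrays and 5.45, 4.81 and 5.30 with MSX, which overlapped (difference -0.73, SE 0.29; limma, adjusted p = 0.658). Snhg18 itself differed by -0.48 in this contrast. Snord90 was the other, with a difference of -0.33 (95% interval -0.632 to -0.0198; limma, adjusted p = 0.693). Snora34 differed by -0.25 with SE 0.19 (95% interval -0.667 to 0.172; limma, adjusted p = 0.861). Groups did not overlap for Snord66 and Snord69, both higher with MSX, against 6.7% of all genes. The count of 2 was 0 without high-fat MSX replicate 2 and 1 without high-fat control replicate 1 or 3.

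Diet without the extract gave 0 snoRNAs past the adjusted threshold (limma; 0.018% of all genes passed) and 0 at an unadjusted p under 0.05, against 3.44% of all genes higher and 3.34% lower. The 73 were split into 36 above and 37 (50.7%) below 0, against 51.2% of all genes. Snora34 had a difference of 0.06 (95% interval -0.357 to 0.482; limma, adjusted p = 0.978). Snora44 had the largest difference, 0.73 with SE 0.35 (limma, adjusted p = 0.746), and rested on high-fat control replicate 1 at 8.92, since the other high-fat control values, 7.66 and 7.83, were within the low-fat control range of 7.12 to 7.85. Leaving out 1 array changed the count at an unadjusted p under 0.05 to 4 for high-fat control replicate 2 and to 3 for low-fat control replicates 1 and 3. It became 2 for low-fat control replicate 2, high-fat control replicate 3 and high-fat MSX replicate 3, and 1 for high-fat control replicate 1, high-fat MSX replicate 2 and low-fat MSX replicate 3.

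Whether the extract effect differed between diets was tested as an interaction. No snoRNA passed (limma; 0% of all genes did), and 5 were above and 1 below 0 at an unadjusted p under 0.05, against 2.67% and 2.43% of all genes. Snora34 had an interaction of 0.95 with SE 0.27 (95% interval 0.352 to 1.54; limma, adjusted p = 0.91) and Snord90 one of -0.96 (95% interval -1.4 to -0.53; limma, adjusted p = 0.664). The call for Snora34 on the low-fat diet was therefore not shown to differ from its value on the high-fat diet. The count of 6 was 3 without low-fat MSX replicate 1, 4 without low-fat MSX replicate 2, low-fat control replicate 2 or high-fat MSX replicate 3, and 13 without low-fat MSX replicate 3. Averaged over diets, the extract gave a Snora34 difference of -0.72 with SE 0.14 (95% interval -1.02 to -0.424; limma, adjusted p = 0.0543), with 0 snoRNAs past the threshold, against 0.261% of all genes. Snora34 passed when low-fat control replicate 3 was left out (limma, adjusted p = 0.0403), and when low-fat MSX replicate 2 was (0.0193). Snora34, Snord72 and Snord104 were the 3 at an unadjusted p under 0.05, all lower, where 4.46% of all genes were lower and 5.2% higher. Their count was 9 without low-fat MSX replicate 3, 6 without high-fat control replicate 2 and 5 without low-fat control replicate 3. Averaged over the extract, diet gave 0 past the threshold (limma; 0.0225% of all genes), with Snora28, Snora34 and Snora75 higher and Snord90 lower at an unadjusted p under 0.05, against 2.88% and 3.06% of all genes. The Snora34 difference was 0.54 (95% interval 0.239 to 0.832; limma, adjusted p = 0.5). The count of 4 was 11 without high-fat MSX replicate 2 or low-fat MSX replicate 3, 7 without low-fat control replicate 2, and 2 without replicate 1 of either MSX group.

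Members that serve in cutting the ribosomal RNA precursor differed between arrays of 1 group, and none passed the test. Snora73a and Snora73b, near-identical copies within Snhg3 that probes may not separate, are needed for maturation of small-subunit ribosomal RNA. Snora73a had 9.57, 9.40 and 9.85 in the low-fat control arrays and 8.84, 8.33 and 9.90 with MSX. The high-fat control arrays gave 9.52, 8.67 and 9.48, and the high-fat MSX arrays 9.38, 8.25 and 9.28. Snora73a was low in low-fat MSX replicates 1 and 2, high-fat control replicate 2 and high-fat MSX replicate 2, at 8.25 to 8.84, and lay between 9.28 and 9.90 in the remaining 8 arrays. Snora73b was low in the same 4 arrays, at 9.38, 8.72, 8.82 and 8.67, and between 9.73 and 10.36 in the others. Their differences for the extract on the low-fat diet were -0.58 (95% interval -1.39 to 0.23) and -0.61 (95% interval -1.49 to 0.271; limma, adjusted p = 0.737 and 0.745). Snhg3 had 6.19, 6.61, 6.46 and 6.18 in those 4 arrays, 2 above and 2 below its mean of 6.38.

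Snord22, which also serves small-subunit maturation and lies within Snhg1, had 10.59, 11.31 and 10.86 in the low-fat control arrays and 10.38, 10.37 and 11.15 with MSX (difference -0.29, SE 0.21; limma, adjusted p = 0.778). Snord13, needed for the small subunit and lying in no host gene of the table, had 8.44, 8.53 and 8.22 without and 7.74, 8.67 and 8.18 with MSX (difference -0.20, SE 0.21; limma, adjusted p = 0.85). Snord118, needed for the large subunit, also has no host gene and had 5.68, 5.75 and 4.85 without and 5.43, 5.09 and 5.27 with MSX (difference -0.16, SE 0.23; limma, adjusted p = 0.897). None of these groups separated. Of 12 cleavage snoRNAs listed, these 5 were measured, 0 passed the test in any of the 7 comparisons, and their median difference for the extract on the low-fat diet was -0.29.

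SnoRNAs of ribosomal protein introns have been tied to lipid toxicity in cultured cells, first those of Rpl13a. Snord35a, within Rpl13a, had 10.27, 10.57 and 10.16 in the low-fat control arrays and 10.21, 10.08 and 10.32 in the high-fat control arrays. The diet difference was -0.13 (95% interval -0.525 to 0.264; limma, adjusted p = 0.934), so that a change of more than 0.525 downward or 0.264 upward lies outside the interval. Of the snoRNAs of Gas5, a growth-arrest transcript, Snord47 was measured and differed by -0.08 with diet and by -0.22 with the extract on the low-fat diet (limma, adjusted p = 0.965 and 0.805). Snora35, within the serotonin receptor gene Htr2c and known from brain, lay between 3.36 and 4.18 in all arrays, below the median probe set.

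Host genes could be set beside most members. By the spans in the gene table, 64 of 73 snoRNAs lay within 1 host gene, 49 of them protein-coding and 15 long non-coding, 6 within several and 3 within none. The host was measured for 55 snoRNAs, by 41 distinct genes. For the extract on the low-fat diet the median over these 55 was -0.16 for the snoRNAs and 0.07 for their hosts, and the correlation across pairs was -0.04. Over the same 55 pairs it was 0.274 for the extract on the high-fat diet, and over the 7 comparisons it ran from -0.0831 to 0.274. These correlations are a description across pairs that share arrays and, in part, hosts. No host passed the adjusted threshold in any of the 7 comparisons (limma). At an unadjusted p under 0.05, 1 of the 41 hosts was higher and 0 lower for the extract on the low-fat diet. Of all genes 4.03% were higher and 4.03% lower there. Of the 15 snoRNAs in non-coding hosts 14 lay below 0 (median -0.29), as did 36 of the 49 in protein-coding hosts (median -0.15). Among snoRNAs longer than the median 33 of 36 lay below 0, and among the shorter ones 25 of 37. Whether these classes differ was not tested.

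SnoRNAs of 1 host were set side by side, and whether they differed from each other was not tested. Snhg12 holds 4 measured members. Snora44 and Snora61 were both low in high-fat MSX replicate 2, at 6.82 and 6.41, and both high in high-fat control replicate 1, at 8.92 and 7.73. Snora16a lay between 10.05 and 10.83 and Snord99 between 12.20 and 12.84, both with their lowest value in low-fat MSX replicate 2. The spliced host, Snhg12, had its highest value, 5.78, in that array. Within Gnl3, which codes for nucleostemin, Snord69 had a difference of -0.53 (SE 0.24) for the extract on the low-fat diet. Snord19 had one of 0.01 (SE 0.21), at a mean level of 4.84. Within Ncl, Snora75 differed by -0.25 (SE 0.23) and Snord82 by -0.14 (SE 0.16).

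**Figure D4:**
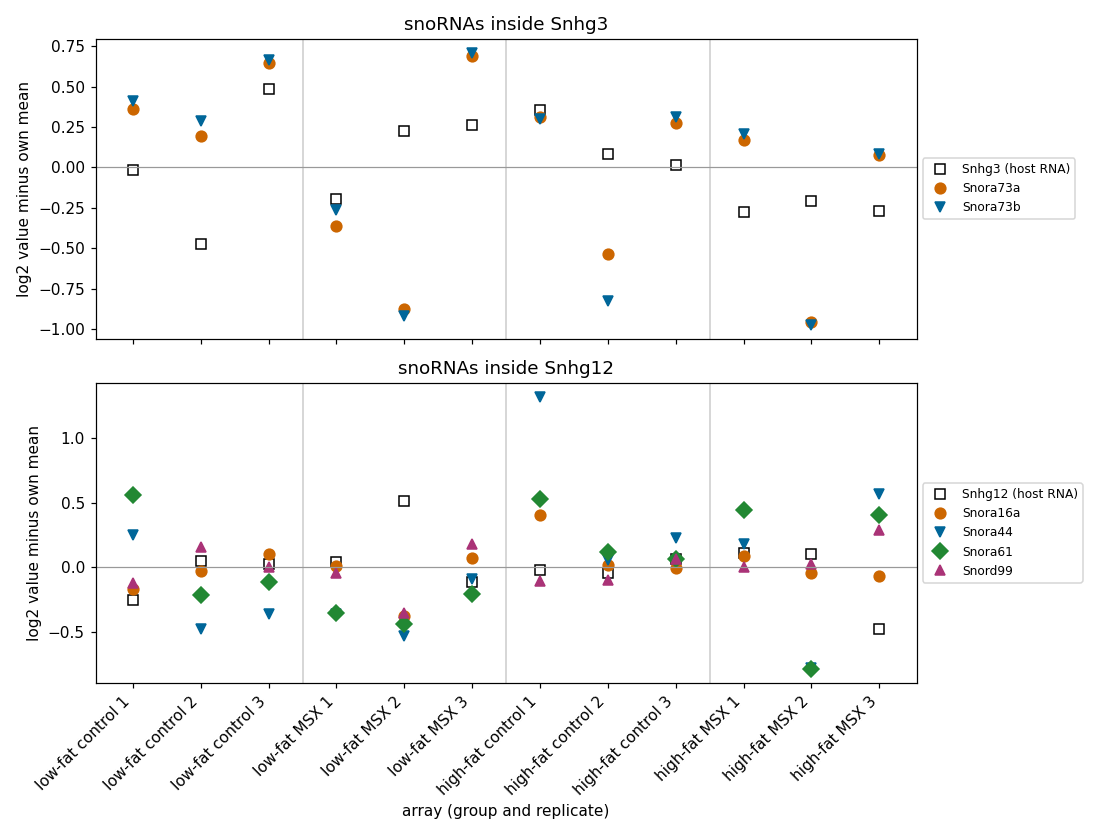
Log2 value minus own mean (vertical axis) in each of the 12 arrays (horizontal axis) for snoRNAs that share a host gene and for the host, with 1 marker shape each. Snora73a and Snora73b are low together in 4 arrays, and within Snhg12 Snora44 and Snora61 are both low in high-fat MSX replicate 2.

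The proteins that build and trim these particles showed 0 members past the threshold in any of the 7 comparisons. For the extract on the low-fat diet the median difference was 0.07 over 3 measured box C/D core proteins (Nop56, Nop58 and Snu13), 0.09 over the 4 box H/ACA core proteins (Dkc1, the pseudouridine synthase, with Nhp2, Nop10 and Gar1), -0.03 over 13 assembly and cap factors, 0.06 over 12 trimming and decay factors and 0.04 over 43 ribosome biogenesis proteins. Dkc1 had 6.64, 6.16 and 6.59 in the low-fat control arrays and 6.66, 6.50 and 6.53 with MSX, which overlapped. Naf1, an assembly factor of H/ACA particles, had 6.45, 6.46 and 6.13 without and 6.20, 5.76 and 5.91 with MSX, which also overlapped. At an unadjusted limma p under 0.05, 0 of the 13 assembly and cap factors were higher and 1 was lower in this contrast. Of all genes 4.03% were higher and 4.03% lower. For the interaction the median of the 13 was 0.227, with 3 above and 0 below 0 at that p, against 2.67% and 2.43% of all genes.

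Other small structured RNAs were read in the same arrays. The 5 measured small Cajal body RNAs, which guide modification of spliceosomal RNA, had array medians of -0.15, -0.34 and 0.0957 there, and the 11 other small structured RNAs -0.19, -0.12 and -0.13. In replicate 3 the snoRNAs and the small Cajal body RNAs thus lay above 0 and the other small structured RNAs below it. Their median differences for the extract on the low-fat diet were -0.19 and -0.18, and 0 members passed the threshold. Terc, the telomerase RNA, which shares the H/ACA fold, had 6.54, 6.36 and 6.32 without and 6.05, 6.41 and 5.30 with MSX (difference -0.48; limma, adjusted p = 0.588). The part of a shift of small RNAs as a whole in the snoRNA values was not tested.

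**Figure D5:**
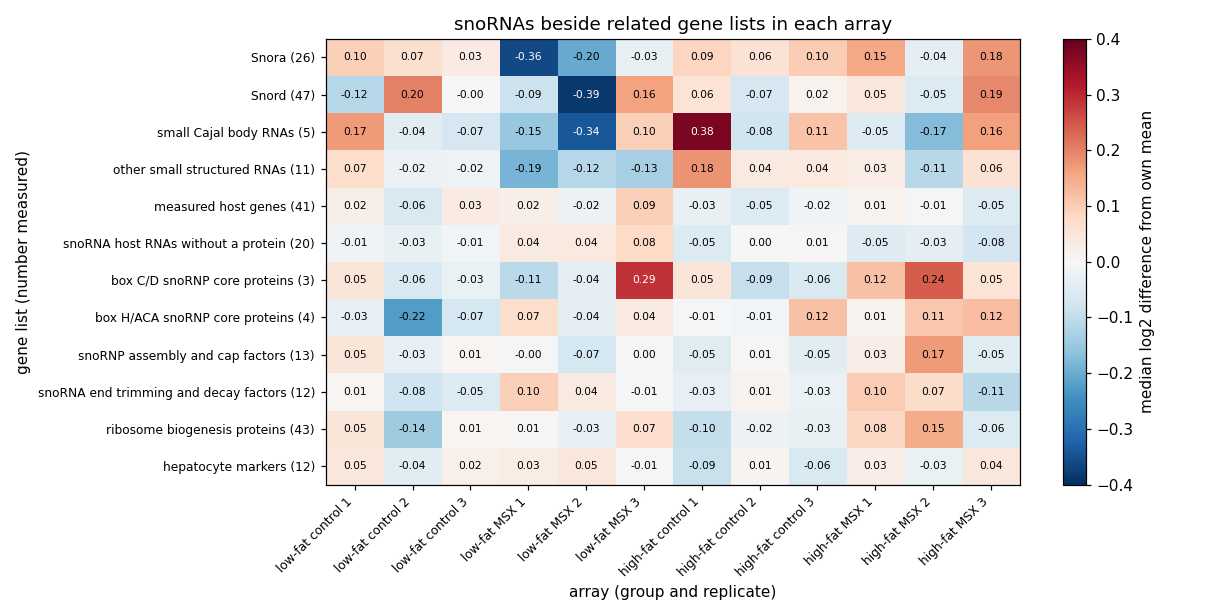
Median log2 difference from own mean (colour and printed value) of each gene list (vertical axis) in each of the 12 arrays (horizontal axis). The rows of Snord and small Cajal body RNAs are lowest in low-fat MSX replicate 2, at -0.39 and -0.34. The Snora row is lowest in low-fat MSX replicate 1, at -0.36, and is at -0.20 in replicate 2. Measured host genes stay between -0.0609 and 0.094.

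Cell type markers were read in the same arrays, since a piece of liver holds several cell types and fewer cells of a type cannot be told apart from less RNA per cell in bulk tissue. The median deviation of 12 hepatocyte markers stayed between -0.088 and 0.0467 in all 12 arrays, and albumin (Alb) lay between 13.88 and 13.95, a level that marks hepatocyte RNA in every array. Macrophage and Kupffer cell markers varied more, at -0.50, -0.38 and 0.156 in the low-fat control arrays and 0.307, 0.192 and -0.23 in the low-fat MSX arrays. They were at 0.552, 0.354 and -0.64 in the high-fat control arrays and at 0.000661, 0.0493 and 0.145 in the high-fat MSX arrays. In the low-fat MSX group these markers were thus higher in the 2 arrays with low snoRNA medians than in the third. In each high-fat group, in contrast, the array with the highest marker median also had the highest snoRNA median. The part of these markers in the result was not tested. Endothelial markers had 0.131, 0.198 and -0.082 in the 3 low-fat MSX arrays.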

How the data were processed

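Liver RNA was measured on 12 Affymetrix arrays, which the labels describe as biological replicates. The authors deposited log2 summaries per probe set, and the submitters' processing notes name the Transcriptome Analysis Console. The sources used here give neither its version nor the normalization or build. The members and the gene lists were chosen with earlier results of these data known.

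Of 41345 probe sets, 23521 had 1 gene symbol, and the one of highest mean per gene was kept (22180 genes, no filter on dim genes). All 12 arrays entered a single fit of 4 group means with limma 3.58.1 in R 4.3.3 (eBayes, two-sided, 8 residual and 5.18 prior degrees of freedom), and p-values were adjusted over all genes by the Benjamini-Hochberg method within each of 7 comparisons, at a threshold of 0.05. The smallest exact permutation p for 3 against 3 arrays is 0.1. The fit was also run on simulated data with errors drawn independently for each gene, so that shifts shared by the genes of 1 array were not part of it.

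The rule for naming took snoRNAs past the threshold, the 5 of lowest p per direction and comparison, and listed snoRNAs. It also took the 8 of highest mean, the 8 of largest SD, hosts of all these snoRNAs, and the 3 of lowest p per other list. The text leaves out some of them, such as Snord55 and Snord110 (high mean) and Snord91a (large SD). Of those taken as higher for the extract on the low-fat diet, the text names only Snord90. Others named, among them Snora2b, Snora69 and the members that share a host, were chosen after their values were seen. A host is the gene whose span holds the snoRNA in the GRCm38.p6 RefSeq table, in which all 73 matched. That table has no strand, so strand was not used, although the rule had asked for it. Of 22 lists, those for the imprinted Snrpn and Dlk1-Dio3 regions had 0 measured genes.

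Alternatives were a block on the replicate number, quantile normalization, a filter on dim genes, a mean-dependent prior, fits to 6 arrays, the mean of probe sets, and leaving out each array.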

Additional observations from a re-analysis of the deposited data

How the results depend on the processing

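No snoRNA called past the threshold changed direction under any alternative run, whereas some values near 0 changed sign without 1 array. The median over the 73 ran from -0.0598 to 0.0385 for diet without extract and from -0.0124 to 0.121 for the extract on the high-fat diet, and Snora34 for diet without extract from -0.0866 to 0.166. The call for Snora34 with the extract on the low-fat diet was held under quantile normalization, the filter on dim genes (66 of 73 snoRNAs kept), the mean-dependent prior and the mean of probe sets, and became 0 calls with only the 6 arrays compared. Averaged over diets, Snora34 passed, as 1 call in place of 0, under quantile normalization (limma, adjusted p = 0.0405), the filter (0.0248) and the mean-dependent prior (0.0136). Counts at an unadjusted p under 0.05 for diet without extract, 0 as reported, were 1 with the filter, 3 with the mean-dependent prior and 2 with 6 arrays. For the extract on the high-fat diet the count of 2 became 1 under quantile normalization, the filter, the mean-dependent prior and 6 arrays, and for the average diet effect 4 became 9 with the mean-dependent prior. Without each array in turn, counts at an unadjusted p under 0.05 ran from 0 to 4 for diet without extract, 0 to 3 for the extract on the high-fat diet, 5 to 19 for the extract on the low-fat diet, 6 to 18 for diet with extract, 3 to 13 for the interaction, 2 to 11 for the average diet effect and 2 to 9 for the average extract effect. Calls past the adjusted threshold then ran from 0 to 1 for the extract on the low-fat diet and from 0 to 1 for the average extract effect. The causes of these changes were not tested.

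Replicate numbers were shared by the groups. Deviations of arrays with the same number correlated at -0.126 to 0.112, and those of arrays with another number at -0.0947 to 0.164. Of the 12 arrays, 5 correlated best with an array of their own number. Whether the numbers pair the arrays was not formally tested. With the replicate number as a block, the extract on the low-fat diet had 0 snoRNAs past the threshold (Snora34, limma, adjusted p = 0.0618), and counts at an unadjusted p under 0.05 were 4 for diet without extract, 8 for the average diet effect and 7 for the average extract effect.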

Other observations

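Probe sets with several symbols were left out of the values above, and 43 of them name at least 1 snoRNA. They were read from a separate limma fit over all 41345 probe sets, with p-values adjusted over that set. None passed the adjusted threshold in any of the 7 comparisons (limma), and the lowest adjusted p was 0.287, for the average extract effect. The shares of the named genes below are from the main fit. For the extract on the low-fat diet 2 of the 43 were lower and 0 higher at an unadjusted p under 0.05. Of the named genes 4.03% were lower and 4.03% higher in that comparison. The median log2 difference of the 43 was -0.105. For diet without the extract 3 were higher and 0 lower, whereas the median of the 43 was -0.136. Of the named genes 3.44% were higher and 3.34% lower there.

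Snora33 and Snora19 each had 2 probe sets. The less bright probe set of Snora33, with a mean of 5.17, had a log2 difference of -0.28 for the extract on the low-fat diet, against -0.06 for the one used, with a mean of 12.8. The 2 probe sets of Snora19 had the same values in all 12 arrays.

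Snora31, within the gene Tpt1, had the largest SD over the 12 arrays of all 73 snoRNAs, 0.66 on the log2 scale. It ranged from 5.03 in high-fat MSX replicate 2 to 6.98 in high-fat MSX replicate 1.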
